A study of Homo sapiens with 9 samples.

Results

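The ZNF genes are the zinc finger genes whose symbol is ZNF followed by a number. Members were all rows of the deposited table whose name has that form, with at most 1 letter after the number, and whose mean was at least 2 FPKM over the 9 libraries. FPKM (fragments per kilobase of exon, scaled to the reads mapped in the library) is a level corrected for gene length and library size. The rule gave 285 members among 558 ZNF rows, in a table of 58735 genes, and 273 ZNF rows lay under the minimum, 36 of them at 0 in every library. Of the members, 279 are annotated as protein-coding and 6 as pseudogenes. The members were thus chosen by name and by their mean level, so their levels are a description with no test.

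RNA was sequenced in H1299, an established human lung cancer cell line labelled as adenocarcinoma, and the comparisons ask how transcripts differ between lines lacking BCKDK and their control. The product of BCKDK is a mitochondrial kinase that switches off the breakdown of branched-chain amino acids. KO2 and KO1 are a pair of BCKDK knockout lines made by CRISPR editing, each grown from a single cell by limiting dilution, so each is 1 clone. Vector cells are labelled wild type and were transduced with the lentiCRISPR v2 plasmid. No clone selection is stated for them, so the effects of editing BCKDK and of growing a line from 1 cell cannot be told apart. Each of the 3 groups has 3 libraries of total RNA. The labels do not say whether the 3 libraries were grown apart, so each p-value reflects a spread between libraries that could be purely technical. KO2 and KO1 are set against the same Vector libraries, and their values are therefore given side by side.

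Most ZNF proteins read DNA with repeated C2H2 fingers, small folds in which a pair of cysteines and a pair of histidines hold a zinc ion. Many of them also carry a KRAB domain, which binds TRIM28 (KAP1). TRIM28 brings the histone methyltransferase SETDB1, HP1 proteins and the NuRD complex, and the bound DNA, often a retroelement, is silenced. Human KRAB zinc finger genes arose by tandem duplication, and most stand in clusters, the densest of them on chromosome 19.

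The repeat that defines the family is shown for 4 members of chromosome 19, of which ZNF302 and ZNF781 were lower and ZNF134 and ZNF331 higher in both knockout lines. Each line is the coding sequence (hg38, GENCODE 29) of the first finger with the commonest spacing plus its linker, and capitals mark the codons of the zinc-binding cysteines and histidines.
ZNF302: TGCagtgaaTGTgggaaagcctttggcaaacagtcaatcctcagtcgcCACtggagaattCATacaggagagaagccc
ZNF781: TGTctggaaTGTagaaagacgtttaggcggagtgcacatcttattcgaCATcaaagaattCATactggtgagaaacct
ZNF134: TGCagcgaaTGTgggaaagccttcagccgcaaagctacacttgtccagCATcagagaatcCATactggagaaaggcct
ZNF331: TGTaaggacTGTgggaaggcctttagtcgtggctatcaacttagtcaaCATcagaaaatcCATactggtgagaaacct
Pairs of these units were 59.0% (ZNF302 and ZNF781) to 74.4% (ZNF781 and ZNF331) identical over 78 bases. Of the 279 coding members, 275 held at least 1 such finger, with a median of 10 fingers and a maximum of 33 in ZNF462. A KRAB core was found in 157 of the 279, against 0.674% of 19746 other coding genes. These other genes leave out the ZNF, ZKSCAN, ZSCAN, ZFP, ZBTB, PRDM and SSX families, so the share is not that of all coding genes.

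Such likeness can lead reads astray. In 11 members over 20% of the 75-base windows of exon sequence were also found in another gene, led by ZNF286A with 54.7% shared with ZNF286B. In 25 members over 20% of the exon bases lay under another gene. Values of these members are uncertain, and among those described here they include ZNF365, ZNF542P, ZNF581 and ZNF783.

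The promoters of 4 members that changed in different ways are printed so that a reader can set the letters beside the changes, and each covers 250 bases up to the gene's start in RefSeq (GRCh38.p14). ZNF300 was nearly silent in KO1, ZNF302 fell in both lines, ZNF134 rose in both, and ZNF274 rose mainly in KO1. Capitals mark the letters CCGGAAG on either strand, the core read by ETS factors.
ZNF300, chr5:150904981-150905230, minus strand: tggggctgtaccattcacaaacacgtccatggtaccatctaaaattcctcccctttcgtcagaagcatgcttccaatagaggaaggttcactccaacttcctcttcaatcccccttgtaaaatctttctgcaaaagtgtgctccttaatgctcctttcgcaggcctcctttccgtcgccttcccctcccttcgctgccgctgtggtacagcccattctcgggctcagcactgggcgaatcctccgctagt
ZNF302, chr19:34677428-34677677, plus strand: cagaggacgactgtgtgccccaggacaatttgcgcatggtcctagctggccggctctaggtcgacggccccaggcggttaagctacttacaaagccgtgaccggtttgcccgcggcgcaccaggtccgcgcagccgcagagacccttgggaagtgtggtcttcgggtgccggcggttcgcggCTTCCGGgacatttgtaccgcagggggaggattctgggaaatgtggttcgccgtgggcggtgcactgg
ZNF134, chr19:57613992-57614241, plus strand: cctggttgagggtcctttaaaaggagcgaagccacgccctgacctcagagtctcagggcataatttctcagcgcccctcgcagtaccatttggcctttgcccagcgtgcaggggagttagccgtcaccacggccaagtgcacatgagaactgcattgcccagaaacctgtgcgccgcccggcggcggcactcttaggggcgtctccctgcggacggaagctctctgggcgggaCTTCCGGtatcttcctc
ZNF274, chr19:58182811-58183060, plus strand: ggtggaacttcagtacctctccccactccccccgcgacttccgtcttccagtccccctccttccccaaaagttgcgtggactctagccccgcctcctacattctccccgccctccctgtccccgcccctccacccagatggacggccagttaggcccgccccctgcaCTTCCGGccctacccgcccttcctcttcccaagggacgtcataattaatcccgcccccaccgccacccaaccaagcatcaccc
ZNF300 holds no match in this window, and its promoter has a GC content of 52.4%, against 64.8% in ZNF302, 61.6% in ZNF134 and 65.2% in ZNF274.

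Recovered reads numbered 16002212 to 17090445 per library, of which the members took 0.86% to 1.02%. BCKDK averaged 0.497 ± 0.18 FPKM in KO2, 1.88 ± 0.20 FPKM in KO1 and 14.7 ± 2.5 FPKM in Vector (SD, n = 3 each). Vector replicate 3 and KO2 replicate 3 were unlike the rest of their groups. Their chi-square per degree of freedom over all genes against the other replicates was 39.06 to 46.35, while it was 2.35 to 6.21 between the remaining pairs of the same group. Of 9 epithelial and lung markers only KRT8 and KRT18 passed the minimum for fitting. NKX2-1, the surfactant genes, EPCAM and CDH1 were at or near 0 in every library, so these defining markers do not mark the labelled lung adenocarcinoma type here. KRT8 averaged 16.2 FPKM in KO2, 120 FPKM in KO1 and 16.2 FPKM in Vector, and its part in the differences between KO2 and KO1 was not tested. None of 7 markers of blood, endothelial and liver cells reached the minimum. In bulk RNA, fewer cells of a type and less RNA per cell cannot be told apart.

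Members were mostly weakly expressed. Their mean level over the 9 libraries ranged between 2.001 and 60.7 FPKM with a median of 3.93 FPKM, 183 of 285 lay under 5 FPKM and 33 reached 10 FPKM. The highest were ZNF581 (60.7 FPKM), ZNF146 (35.7 FPKM), ZNF217 (29.1 FPKM), ZNF664 (25.4 FPKM) and ZNF768 (20.9 FPKM). ZNF512B (19.5 FPKM), ZNF655 (19.1 FPKM), ZNF467 (18.4 FPKM), ZNF622 (18.0 FPKM) and ZNF580 (17.6 FPKM) followed. Just inside the minimum lay ZNF254 with 2.001, ZNF235 with 2.012 and ZNF708 with 2.016 FPKM, and just outside it ZNF775 with 1.995, ZNF718 with 1.988 and ZNF808 with 1.987 FPKM.

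In KO2, 79 members rose and 37 fell relative to Vector, so 40.7% of the members were called. A call is an adjusted p under 0.05 (limma on log2(FPKM + 1), 16426 genes fitted in 1 model, Benjamini-Hochberg adjustment). Among all fitted genes 27.9% were called, 12.9% rose and 15% fell, against 27.7% and 13% of the members. Genes that reach 2 FPKM on average, as the members had to, gave a background of 30.6%, with 13.4% that rose and 17.2% that fell. The median log2 change of the members was 0.17, against -0.005 over all fitted genes. Few changes were large, with 4 members up and 10 down by at least 1 on the log2 scale.

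In KO1, 79 members rose and 52 fell, 46% of the members, where 34.1% of all fitted genes were called. The share that rose was 27.7%, against 17.4% of all fitted genes, and the share that fell was 18.2%, against 16.7%. The median log2 change was 0.089, against 0.008 over all genes, and 7 members rose and 15 fell by at least 1. Genes reaching 2 FPKM had a median of 0.056, with 37.2% called, 21.2% up and 15.9% down. With levels rescaled to TPM the split was 80 up and 33 down in KO2 and 61 up and 62 down in KO1. Of all fitted genes, 13.1% rose and 13.5% fell in KO2 on that scale, and 12.8% rose and 20% fell in KO1. Leaving out KO1 replicate 1 gave 52 and 35 calls in KO1, and leaving out KO1 replicate 2 gave 46 and 35. Without Vector replicate 3 and KO2 replicate 3 the counts were 103 up and 74 down in KO2, where 49.5% of all genes were called, and 115 up and 92 down in KO1, where 56.8% were called.

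With both lines averaged, 86 members rose and 48 fell, 47% of the members, where 31.3% of all fitted genes and 34.4% of those reaching 2 FPKM were called. Without Vector replicate 3 and KO2 replicate 3 this average gave 116 up and 80 down, where 54.5% of all genes were called.

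Between the knockout lines, 37 members were higher and 18 lower in KO2 than in KO1, 19.3% of the members where 30.9% of all fitted genes were called. Higher members made up 13%, against 14.5% of all genes, and lower ones 6.32%, against 16.4%. The median log2 difference was 0.041, against -0.017. Under TPM it was 0.153, with 58 higher and 11 lower, while the median of all genes moved to 0.078. The count depended on single libraries. Leaving out KO1 replicate 1 gave 12 higher and 11 lower, KO1 replicate 2 gave 11 and 10, KO1 replicate 3 gave 13 and 11, KO2 replicate 2 gave 24 and 12, and Vector replicate 3 gave 64 and 33. Without Vector replicate 3 and KO2 replicate 3 it was 70 and 56, where 47.7% of all genes were called.

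**Figure D1:**
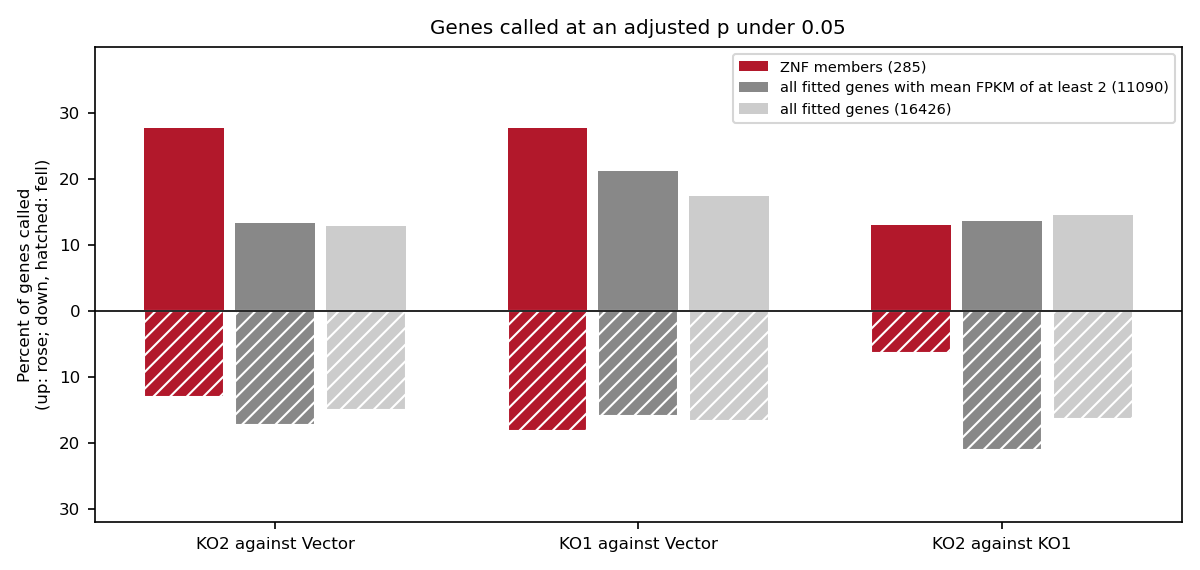
Share of genes called higher (above 0) and lower (below 0, hatched) in each comparison, in percent, for the 285 ZNF members, the fitted genes averaging 2 FPKM or more, and all 16426 fitted genes. Members that rose made up 27.7% in both knockout lines, above the 12.9% and 17.4% of all genes. Between KO2 and KO1 the members called made up 19.3%, and all genes called 30.9%.

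Called members lay in blocks along the chromosomes. Members stood on 21 chromosomes, 127 of them on chromosome 19, and 167 of 285 fell into 17 clusters, chains of at least 4 members whose starts lie at most 1 Mb apart. On chromosome 19, 50 members rose and 24 fell in KO2, and 47 rose and 27 fell in KO1, of 127. The other 1083 fitted genes of this chromosome had 23.5% up and 17% down in KO2 and 21.8% up and 19.1% down in KO1. The shift of chromosome 19 was part of how these genes were chosen for description, so it is given with no test and supports nothing further. On the other chromosomes 29 of 158 members rose and 13 fell in KO2, and 32 rose and 25 fell in KO1. These are 26.6% and 36.1% called, close to the 27.9% and 34.1% of all fitted genes. By direction, 18.4% rose and 8.23% fell in KO2, against 12.9% and 15% of all fitted genes. In KO1, 20.3% rose and 15.8% fell, against 17.4% and 16.7%. The median log2 change was 0.128 in KO2 and 0.072 in KO1, against -0.005 and 0.008. The counts off chromosome 19 changed with single libraries. In KO2, leaving out Vector replicate 1 gave 14 and 10, Vector replicate 2 gave 16 and 10, and Vector replicate 3 gave 44 and 29. In KO1, leaving out KO1 replicate 1 gave 15 and 15, KO1 replicate 2 gave 14 and 15, Vector replicate 1 gave 18 and 17, and Vector replicate 2 gave 18 and 15.

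**Figure D2:**
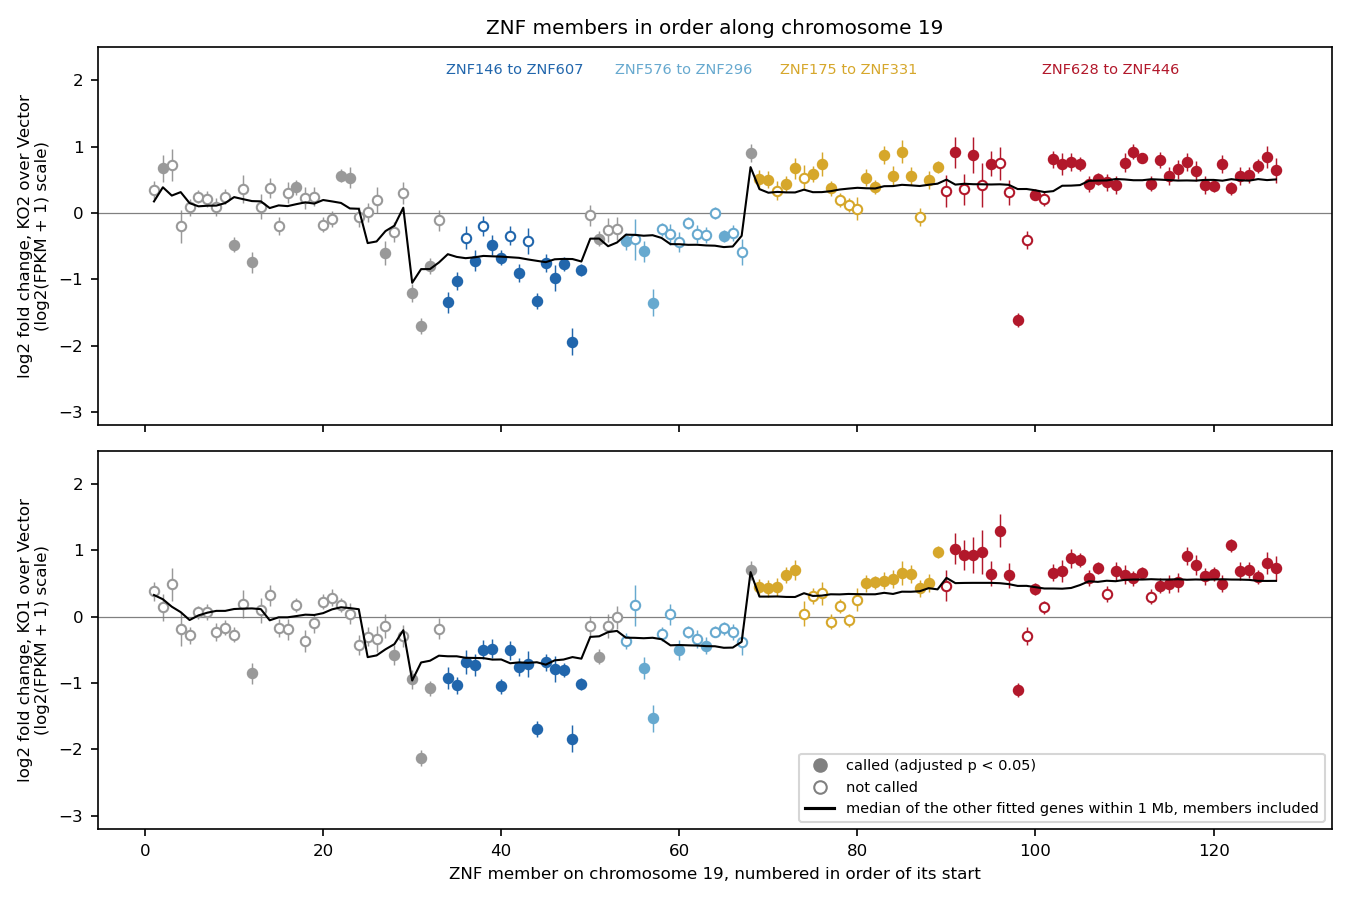
Log2 fold change over Vector of each of the 127 members of chromosome 19 in KO2 (top) and KO1 (bottom), in order of their start, with filled points for called members, bars for the standard error and a line for the median of the other fitted genes within 1 Mb, members included. In both panels the members between ZNF146 and ZNF607 lie below 0 and most of those from ZNF175 on lie above it, as does the line.

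Along chromosome 19 blocks of members fell and other blocks rose. The block of 16 members between ZNF146 and ZNF607 (starting at chr19:36214602) held 12 members that fell in KO2 and 16 that fell in KO1, with median log2 changes of -0.76 and -0.77. With 1 library left out, 11 to 15 members of the block fell in KO2 and 11 to 16 in KO1. Taken per library, the median deviation of these members from the Vector mean was -0.84, -0.81 and -0.71 in KO2, -0.83, -0.78 and -0.80 in KO1, and 0.16, 0.13 and -0.29 in Vector. All 6 knockout libraries thus lay under all 3 Vector libraries, and Vector replicate 3 was the lowest of its group. The 27 fitted genes between these members that are no ZNF members had medians of -0.72 in KO2 and -0.70 in KO1, with 19 that fell in each line. Next along the chromosome, the 14 members between ZNF576 and ZNF296 (from chr19:43596392) had medians of -0.34 and -0.30, with 4 that fell in each line, and 37 other genes there had -0.47 and -0.37. That count is fragile. It was 8 in either line without Vector replicate 3 and 2 without Vector replicate 1. In KO2 it was also 2 without KO2 replicate 1, KO2 replicate 2 or Vector replicate 2, and in KO1 2 without KO1 replicate 1, 2 or 3. Without Vector replicate 3 and KO2 replicate 3 it was 10 in both lines.

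Both blocks near the end of the long arm went the other way. Among 21 members between ZNF175 and ZNF331 (from chr19:51571298) 15 rose in KO2 and 14 in KO1 and none fell, with median log2 changes of 0.51 and 0.45. The 32 other genes inside this span had 0.27 and 0.19. Without KO1 replicate 2 the count in KO1 was 8, and without KO1 replicate 3 it was 7. The terminal block of 38 members, ZNF628 to ZNF446 (from chr19:55476332), had 30 that rose and 1 that fell in KO2, and 32 that rose and 1 that fell in KO1. Its medians were 0.60 and 0.65, and those of the 78 other genes in the span were 0.40 and 0.46. With 1 library left out, 20 to 32 members of the block rose in KO2 and 23 to 33 in KO1. By library the median deviation of this block was 0.53, 0.59 and 0.69 in KO2, 0.64, 0.68 and 0.64 in KO1, and 0.006, 0.009 and -0.018 in Vector. Every knockout library lay above every Vector library, while KO2 and KO1 overlapped. Between KO2 and KO1, 1 of the 38 was higher and 2 were lower. Without Vector replicate 3 these were 2 and 4, and without both Vector replicate 3 and KO2 replicate 3 they were 3 and 10.

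**Figure D3:**
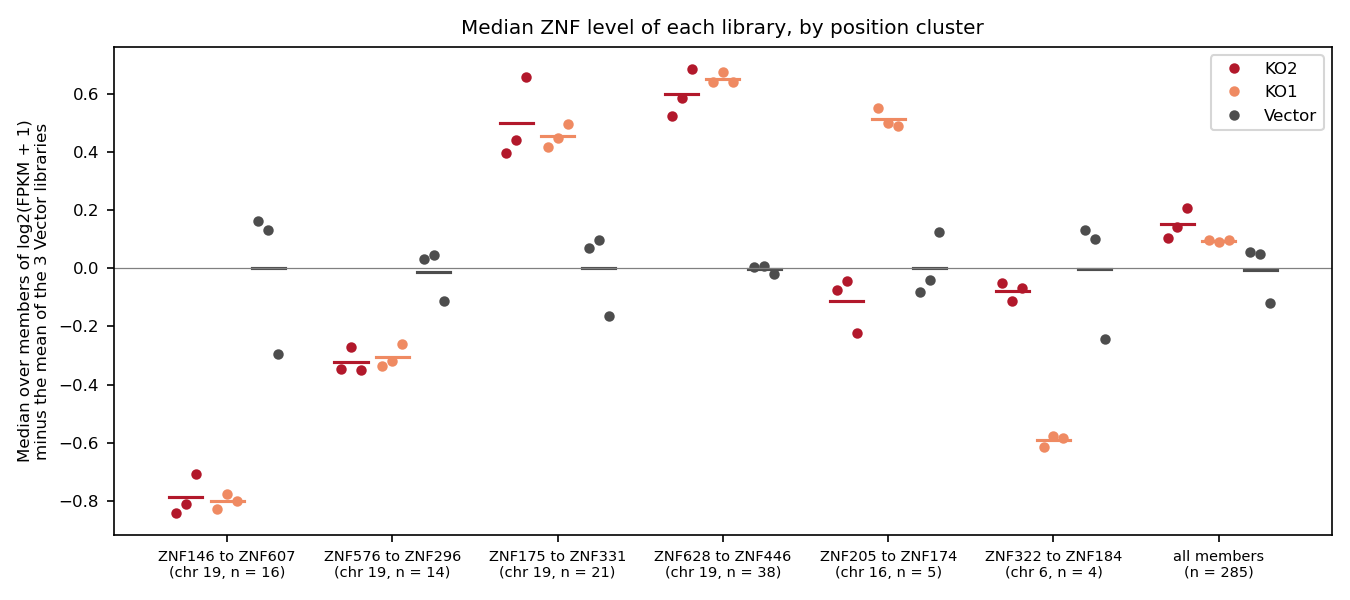
Median over the members of a cluster of log2(FPKM + 1) minus the mean of the 3 Vector libraries, with a point for each library and a bar for the mean of its group (KO2, KO1, Vector). The cluster starting at ZNF146 lies near -0.8 in all 6 knockout libraries and the terminal cluster starting at ZNF628 lies above 0.5 in all 6, while the chromosome 16 cluster is near 0.5 in KO1 and between -0.22 and 0.13 in KO2 and Vector.

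The neighbours of the members were then taken into account. When the median deviation of the other fitted genes within 1 Mb was subtracted in each library, 40 members rose and 20 fell in KO2, where 25% of all genes were called. In KO1, 32 rose and 29 fell, where 28.4% of all genes were called. Between KO2 and KO1, 27 were higher and 20 lower, where 28.3% were called. Of the 74 members of chromosome 19 called in KO2, 15 were still called in the same direction, and 17 of 74 in KO1. Elsewhere 26 of 42 were still called in KO2 and 31 of 57 in KO1. Genes with fewer than 5 other fitted genes within 1 Mb had nothing subtracted, so their values stayed as they were. The shares still called on and off chromosome 19 are therefore not compared. Copy number was not measured here, and its part in the blocks was not tested.

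The remaining chromosomes gave smaller blocks, several of which differed between the lines. On chromosome 16, KO1 had 8 of 16 members up and none down, where 17.4% of all fitted genes rose and 16.7% fell. KO2 had 1 up and none down, where 12.9% of all fitted genes rose and 15% fell. The cluster ZNF205 to ZNF174 of this chromosome (from chr16:3112560, 5 members) had all 5 raised in KO1 and none called in KO2. Its medians were -0.12 in KO2 and 0.46 in KO1. Set against each other, 4 of the 5 were lower in KO2 than in KO1, with a median difference of -0.64. The 5 other genes of this span had a median of -0.30 in KO1, where none rose and 1 fell. Within 1 Mb of each member, the other fitted genes that are no members went the way of the cluster. Their medians in KO1 ran from 0.172 around ZNF263 to 0.239 around ZNF205 and ZNF213. For KO2 against KO1 they ran from -0.344 around ZNF205 and ZNF213 to -0.237 around ZNF75A. The count of 5 in KO1 was 2 without KO1 replicate 1 or 2, and 3 without KO1 replicate 3, Vector replicate 1 or Vector replicate 2. The count on chromosome 16 in KO1 was 4 without KO1 replicate 1 or 2 and 5 without KO1 replicate 3, Vector replicate 1 or Vector replicate 2. The edited gene BCKDK lies on the same chromosome (chr16:31106107-31112791), next to a cluster of 7 members, ZNF48 to ZNF646, of which none was called in either line at an adjusted p under 0.05.

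On chromosome 6 the cluster ZNF322 to ZNF184 (from chr6:26634383, 4 members) lay lower in KO1. Of the 4 members, 1 fell in KO2, with a median of -0.08, and 3 fell in KO1, with a median of -0.59, and all 4 were higher in KO2 than in KO1. In KO2, 2 fell without Vector replicate 3, and 1 fell and 1 rose without KO2 replicate 1. The lowest of them, ZNF204P, a processed pseudogene (chr6:27357825-27360221), had 2.15, 1.77 and 1.98 FPKM in KO2, 0.784, 0.539 and 0.864 FPKM in KO1, and 4.56, 5.003 and 3.02 FPKM in Vector. The 3 groups did not overlap. Of 6 members at the end of chromosome 8 (from chr8:144720907), 4 rose in KO2 and 2 in KO1, with medians of 0.54 and 0.20. In KO2 the count was 2 without KO2 replicate 3, Vector replicate 1 or Vector replicate 2, and in KO1 it was 0 without any 1 of the 3 KO1 libraries, Vector replicate 1 or Vector replicate 2. Among members outside all clusters, 23 of 118 rose and 13 fell in KO2 and 24 rose and 19 fell in KO1. These are 30.5% and 36.4% called, near the 27.9% and 34.1% of all fitted genes. By direction, 19.5% rose and 11% fell in KO2, against 12.9% and 15% of all fitted genes. In KO1, 20.3% rose and 16.1% fell, against 17.4% and 16.7%. Without Vector replicate 1 or 2 the counts in KO2 were 13 and 10, without Vector replicate 3 they were 32 and 24, and without KO1 replicate 2 the counts in KO1 were 13 and 15.

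The member with the largest change in KO1 was ZNF300 (chr5:150894392-150904983), a KRAB repressor gene with 12 fingers. It had 4.39, 4.69 and 2.93 FPKM in KO2, 0.071, 0.0139 and 0.0537 FPKM in KO1, and 18.9, 16.9 and 11.5 FPKM in Vector. The groups did not overlap, and KO1 was close to silent, with 5, 1 and 4 reads. The log2 change was -1.74 in KO2 (adjusted p = 0.000225) and -3.98 in KO1 (adjusted p = 1.22e-06), and KO2 was higher than KO1 by 2.24 (adjusted p = 5.03e-05). The 24 other fitted genes within 1 Mb that are no members had medians of 0.29 in KO2 and 0.19 in KO1.

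ZNF302 (chr19:34677639-34686397), a KRAB gene that lies outside the clusters, had 4.07, 4.09 and 4.001 FPKM in KO2, 2.79, 2.62 and 2.92 FPKM in KO1, and 17.6, 16.6 and 12.8 FPKM in Vector. Every knockout library lay far under every Vector library. The log2 change was -1.71 ± 0.12 (SE) in KO2 and -2.13 ± 0.12 in KO1 (adjusted p = 1.67e-05 and 3.19e-06, limma). Its 29 neighbours had medians of -0.90 and -0.66, and after subtraction of all fitted neighbours, members included, ZNF302 still fell by 0.86 in KO2 and by 1.44 in KO1. ZNF781 (chr19:37667751-37692322), in the first falling block, had 2.58, 3.18 and 2.05 FPKM in KO2, 2.63, 2.77 and 3.09 FPKM in KO1, and 15.2, 15.3 and 8.75 FPKM in Vector. Its log2 changes of -1.94 and -1.84 were the lowest of that block in both lines. ZNF585B, of the same block, changed by -1.33 and -1.70, and ZNF404, of the next block, by -1.35 and -1.53.

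ZNF146 (chr19:36214602-36238774), which encodes a protein made almost only of fingers, was the second most abundant member. It had 21.5, 21.4 and 21.1 FPKM in KO2, 29.1, 28.8 and 28.7 FPKM in KO1, and 69.2, 60.1 and 41.6 FPKM in Vector. The knockout libraries were tightly grouped and all lower than Vector, whose replicate 3 was lowest. The log2 change was -1.35 in KO2 and -0.93 in KO1, and the call in KO1 was lost when the neighbours were subtracted (-0.33, adjusted p = 0.167, limma). ZNF507 (chr19:32345594-32387667) fell by 1.20 in KO2 and by 0.95 in KO1, but by subtraction of its neighbours its changes were -0.15 and 0.02. ZNF519 (chr18:14057457-14132490) turned round under this subtraction. Its changes were -1.31 and -1.48, its 12 neighbours had medians of -1.82 and -2.16, and after subtraction it was higher, by 0.46 in KO2 and 0.66 in KO1.

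A pseudogene fell within the terminal block. ZNF542P (chr19:56368099-56379828), a transcribed unprocessed pseudogene, had 3.69, 3.52 and 3.96 FPKM in KO2, 5.71, 5.53 and 5.95 FPKM in KO1, and 14.9, 14.1 and 11.5 FPKM in Vector. It was the 1 member of the block that fell. Its log2 changes were -1.61 in KO2 and -1.10 in KO1, while its 42 neighbours had medians of 0.36 and 0.40. ZNF561 (chr19:9604680-9621399) fell by 0.74 in KO2 and 0.85 in KO1, with neighbour medians of 0.23 and 0.19.

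Among members that rose, ZNF618 (chr9:113876282-114056591), whose protein binds UHRF2, a reader of hydroxymethylated DNA, had the largest rise in both lines. It had 5.63, 5.65 and 7.62 FPKM in KO2, 4.80, 5.86 and 5.22 FPKM in KO1, and 0.691, 0.91 and 1.21 FPKM in Vector. The lowest knockout library was well above the highest Vector library, and the log2 change was 1.91 in KO2 and 1.71 in KO1 (adjusted p = 2.47e-05 and 3.23e-05, limma). ZNF385D (chr3:21412222-22373321) rose by 1.11 and 1.03. ZNF134 (chr19:57614233-57624723), in the terminal block, had 11.8, 12.4 and 15.6 FPKM in KO2, 10.6, 9.43 and 10.4 FPKM in KO1, and 6.85, 6.14 and 6.40 FPKM in Vector. It rose by 0.93 in KO2 and 0.58 in KO1, and with its neighbours subtracted by 0.43 in KO2 and 0.02 in KO1. ZNF331 (chr19:53519527-53580269), an imprinted gene, rose by 0.69 in KO2 and 0.98 in KO1, and with neighbours subtracted the KO2 value was 0.24 (adjusted p = 0.0781, limma). ZNF787 (chr19:56087366-56121280) was 0.75 higher in KO2 (adjusted p = 0.0538, not called) and rose by 1.30 in KO1. The most abundant member, ZNF581 (chr19:55635459-55645622), averaged 71.7 ± 6.3 FPKM in KO2, 66.8 ± 5.0 FPKM in KO1 and 43.6 ± 13.5 FPKM in Vector (SD, n = 3 each). Its log2 changes were 0.74 and 0.64, and with neighbours subtracted 0.32 and 0.14, neither of which passed. The call in KO2 was lost without Vector replicate 1 or 2, and the call in KO1 without any 1 of the 3 KO1 libraries, Vector replicate 1 or Vector replicate 2.

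**Figure D4:**
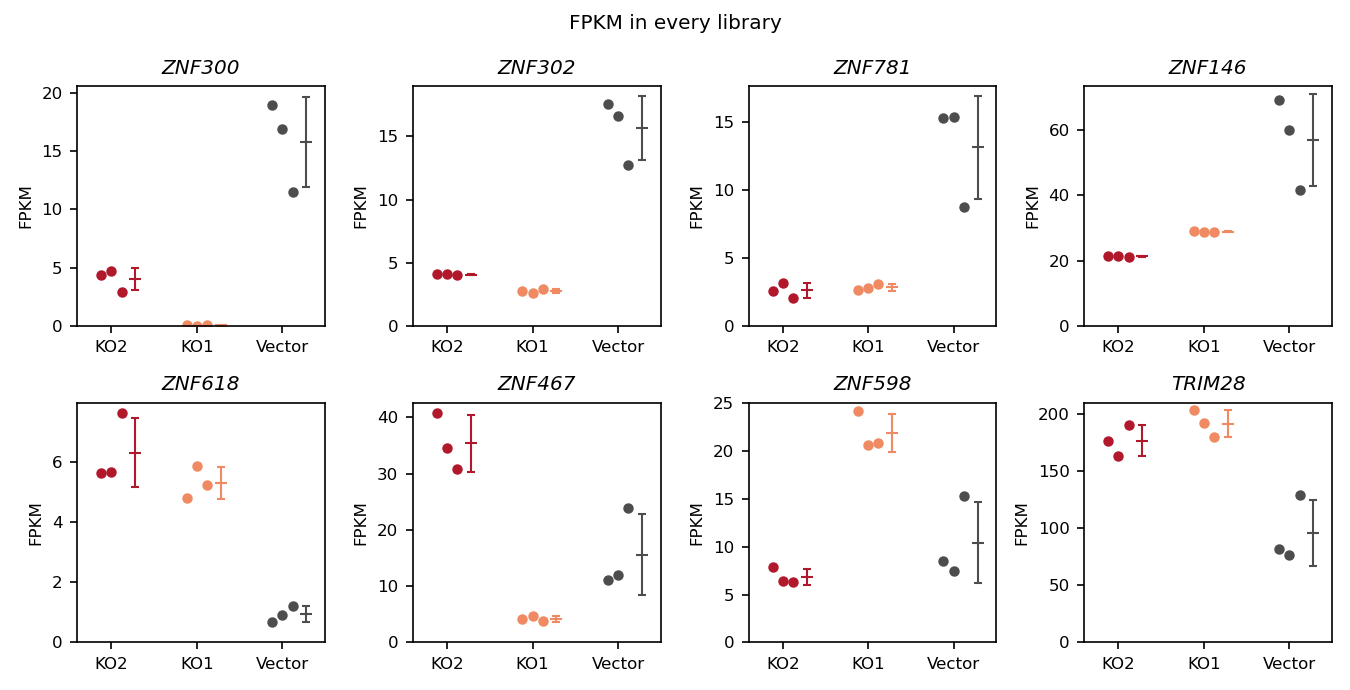
FPKM in every library of ZNF300, ZNF302, ZNF781, ZNF146, ZNF618, ZNF467, ZNF598 and TRIM28, with a point per library and, beside the points, the mean of each group with its SD (KO2, KO1, Vector, n = 3 each), each panel on its own axis starting at 0. ZNF302, ZNF781 and ZNF146 are low and ZNF618 and TRIM28 high in both knockout lines, while ZNF467 is high in KO2 and low in KO1 and ZNF598 is high in KO1.

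A few members separated the knockout lines. ZNF467 (chr7:149764182-149773479), known in mouse for steering marrow precursors between bone and fat cell fates, had 40.8, 34.5 and 30.8 FPKM in KO2, 4.13, 4.77 and 3.77 FPKM in KO1, and 11.1, 11.97 and 23.8 FPKM in Vector. It was above every Vector library in KO2 and below every one in KO1. The log2 change was 1.20 in KO2 (adjusted p = 0.00694) and -1.59 in KO1 (adjusted p = 0.00125), and the lines differed by 2.80 (adjusted p = 6.3e-05, limma). ZNF362 (chr1:33256545-33300719) had 4.35, 3.95 and 5.64 FPKM in KO2, 1.49, 1.40 and 1.42 FPKM in KO1, and 3.96, 4.17 and 5.42 FPKM in Vector. KO2 and Vector overlapped, and KO1 fell by 1.17. ZNF365 (chr10:62374192-62670301), linked to telomere and fragile site stability, had 3.74, 3.75 and 3.66 FPKM in KO2, 1.95, 1.82 and 1.84 FPKM in KO1, and 1.27, 1.25 and 0.954 FPKM in Vector. It rose by 1.13 in KO2 and 0.41 in KO1, but 29.7% of its windows are shared with another gene.

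Members with roles in RNA, ribosomes and the spindle numbered 12 of 13 listed, with 1 listed gene at 0 in every library. In KO2, 2 rose and 2 fell, in KO1, 2 rose and 1 fell, and between KO2 and KO1 none was higher and 3 were lower. These are 33.3%, 25% and 25% called, near the 27.9%, 34.1% and 30.9% of all fitted genes. The 3 were ZNF598, ZNF622 and ZNF330. ZNF598 (chr16:1997654-2009823), the ubiquitin ligase that marks collided ribosomes, had 7.84, 6.41 and 6.31 FPKM in KO2, 24.2, 20.7 and 20.9 FPKM in KO1, and 8.54, 7.43 and 15.3 FPKM in Vector. All KO1 libraries were above all others, and the log2 values were -0.48 in KO2 (adjusted p = 0.133), 1.06 in KO1 (adjusted p = 0.00564) and -1.55 for KO2 against KO1 (adjusted p = 0.000875, limma). ZNF622, the human relative of the yeast ribosome assembly factor Rei1, had 13.2, 11.9 and 16.1 FPKM in KO2, 25.1, 21.9 and 21.3 FPKM in KO1, and 18.6, 15.8 and 18.5 FPKM in Vector. It was 0.70 lower in KO2 than in KO1 on the log2 scale (-0.70, adjusted p = 0.00374, limma), while neither line passed against Vector. The nucleolar ZNF330 fell by 0.38 in KO2, a call that held in 1 of the 9 fits with a library left out, the one without Vector replicate 3. It was at 0.17 in KO1, not called. ZNF346, a binder of double-stranded RNA, rose by 0.55 and 0.51, the second of which was lost without KO1 replicate 1 or 2 or Vector replicate 1 or 2. ZNF706 fell by 0.61 in KO2 and by 0.62 in KO1. With neighbours subtracted the KO1 values of ZNF346 and ZNF706 were 0.30 and -0.16 and no longer passed. ZNF385A, a p53 target that binds RNA, rose by 0.96 in KO2, lost without Vector replicate 1 or 2, and was at 0.28 in KO1, not called. The counts of this list changed with single libraries. In KO2 they were 1 and 1 without Vector replicate 1 or 2. In KO1 they were 1 and 1 without KO1 replicate 1 or 2 or Vector replicate 1 or 2, 4 and 1 without KO2 replicate 3, and 3 and 2 without Vector replicate 3. With neither Vector replicate 3 nor KO2 replicate 3, 2 rose and 6 fell in KO2, and 5 rose and 5 fell in KO1.

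Of 11 listed genes that work with chromatin complexes 9 were members, and of these 3 rose and 1 fell in each line. That is 44.4% called in each, against 27.9% of all fitted genes in KO2 and 34.1% in KO1. The listed genes under the minimum were ZNF711, which fell by 1.55 in both lines, and ZNF518B. The latter fell by 0.42 in KO2 and was at 0.07 in KO1, not called. ZNF217 (chr20:53567065-53609907), an oncogene product that joins the CoREST and CtBP repressors, had 34.1, 35.0 and 40.9 FPKM in KO2, 29.7, 30.0 and 28.2 FPKM in KO1, and 21.4, 22.3 and 20.4 FPKM in Vector. Its groups did not overlap, and its log2 changes were 0.75 and 0.44. ZNF532 (chr18:58862600-58986480), which joins ZNF592, ZNF687 and ZMYND8, had 10.4, 10.5 and 12.7 FPKM in KO2, 13.5, 14.9 and 14.97 FPKM in KO1, and 5.57, 5.67 and 5.48 FPKM in Vector. It rose by 0.89 in KO2 and 1.23 in KO1. ZNF827, which recruits NuRD at telomeres, rose by 0.46 in KO2, lost without Vector replicate 1, and by 0.59 in KO1. ZNF518A, a partner of the methyltransferase G9a, fell by 0.87 and 0.85. The other 5, ZNF592, ZNF687, ZNF644, ZNF462 and ZNF516, were not called in either line. Within the ZNF532 group of partners, ZNF592 had log2 values of 0.22 and -0.01 and ZNF687 of 0.37 and 0.34.

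Of 6 promoter-binding members 1 passed in each line, or 16.7%, against 27.9% of all fitted genes in KO2 and 34.1% in KO1. This was ZNF335 in both lines, with 0.47 in KO2 and 0.51 in KO1. Without Vector replicate 1 or 2, or without any 1 of the KO1 libraries, it did not pass in either line, and without any 1 of the KO2 libraries it did not pass in KO2. With neighbours subtracted it had 0.34 and 0.10 and passed in neither line. ZNF143, an activator of many housekeeping promoters, had -0.02 and 0.15, and ZNF281 had -0.23 and -0.05. ZNF148 was 0.70 higher in KO2 than in KO1 (adjusted p = 0.0129, limma), a call that was lost without KO1 replicate 1. In the list of binders of repeats and imprints, 3 of 7 were members. ZNF274 (chr19:58183029-58213562), which brings SETDB1 to the last exons of ZNF genes themselves, had 9.11, 9.15 and 7.85 FPKM in KO2, 13.9, 15.6 and 14.9 FPKM in KO1, and 6.35, 6.40 and 6.72 FPKM in Vector. It rose by 0.37 in KO2 (adjusted p = 0.0182) and 1.08 in KO1 (adjusted p = 4.25e-05, limma), and was lower in KO2 than in KO1 (-0.71). The KO2 call was lost without KO2 replicate 1 or 2 or without Vector replicate 1 or 2, and with the neighbours subtracted the KO2 value was -0.14. ZNF445, a keeper of imprints, rose by 0.29 and 0.30, calls that were lost in 8 and 6 of the 9 fits that each left out 1 library. The KO2 call held only without Vector replicate 3, and the KO1 call only without that library, KO2 replicate 1 or KO2 replicate 3. With neighbours subtracted neither passed (0.31 and 0.18). ZNF10, the founding KRAB gene, had 0.21 and -0.18, not called.

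Members were also split by the KRAB core. Those with it had 49 up and 23 down of 157 in KO2 and 46 up and 29 down in KO1, and coding members without it had 29 up and 12 down of 122 in KO2 and 32 up and 21 down in KO1. On chromosome 19 the shares called were 62.2% of 98 KRAB members and 40.7% of 27 others in KO2, and 58.2% and 55.6% in KO1. On the other chromosomes they were 18.6% of 59 KRAB members and 31.6% of 95 others in KO2, and 30.5% and 40% in KO1. Over all chromosomes they were 45.9% of KRAB members and 33.6% of others in KO2, and 47.8% and 43.4% in KO1. Of all fitted genes, 27.9% were called in KO2 and 34.1% in KO1. The difference between KRAB members and others was not tested. Without KO1 replicate 2 the KRAB members had 28 up and 19 down in KO1. Coding members without the core had 16 up and 10 down in KO2 without Vector replicate 1 and 41 up and 25 down without Vector replicate 3. In KO1 they had 18 up and 14 down without KO1 replicate 1 or 2, 20 up and 15 down without Vector replicate 1, and 20 up and 14 down without Vector replicate 2.

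The partners of KRAB proteins were read from a list of 35 genes. Of these, 5 rose and 6 fell in KO2, and 7 rose and 3 fell in KO1. These are 31.4% and 28.6% called, near the 27.9% and 34.1% of all fitted genes. TRIM28 itself (chr19:58544091-58550722) lies just beyond the terminal block and had 177, 163 and 190 FPKM in KO2, 203, 192 and 180 FPKM in KO1, and 81.6, 76.7 and 129 FPKM in Vector. All knockout libraries were above all Vector libraries, with log2 changes of 0.91 (adjusted p = 0.00625) and 1.03 (adjusted p = 0.00267, limma). With neighbours subtracted the values were 0.41 (adjusted p = 0.0889) and 0.49 (adjusted p = 0.0439, limma). SETDB1, which methylates lysine 9 of histone H3 at KRAB targets, had 5.24, 5.55 and 6.55 FPKM in KO2, 6.34, 6.87 and 6.90 FPKM in KO1, and 5.51, 5.55 and 6.17 FPKM in Vector. KO2 and Vector overlapped, and neither line passed the test.

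Among the NuRD genes of the list, CHD3 rose by 1.38 in KO2 and 0.86 in KO1, and MTA2 by 0.58 and 0.72. HDAC2 fell by 0.92 in KO2 and MTA1 by 0.74 in KO1. CHD4 rose by 0.38 in KO1 and RBBP7 fell by 0.41 in KO2, while HDAC1 and RBBP4 passed in neither line, and these 4 were named after their values were seen. EHMT2 (G9a) rose by 0.76 in KO2, ZMYND8 fell by 0.66 in KO2, and SUV39H1 fell by 0.59 in KO2. The HUSH complex gene MPHOSPH8 rose by 0.71 in KO1, SETDB2 rose by 0.51 in KO1, and PPHLN1 fell by 0.56 and 0.65. With neighbours subtracted several of these calls ended. In KO2 the values were then 0.45 for EHMT2 (adjusted p = 0.0582), -0.10 for SUV39H1 (0.527), -0.25 for PPHLN1 (0.323) and 0.005 for RBBP7 (0.982, limma). In KO1 they were 0.48 for CHD3 (adjusted p = 0.0899), 0.14 for CHD4 (0.338), 0.21 for SETDB2 (0.152) and -0.19 for PPHLN1 (0.441, limma). Leaving out Vector replicate 3 gave 11 up and 7 down in KO1, and leaving out these 2 unlike libraries, Vector replicate 3 and KO2 replicate 3, gave 7 up and 12 down in KO2 and 14 up and 11 down in KO1. Without both libraries 49.5% of all genes were called in KO2 and 56.8% in KO1. Between KO2 and KO1, 3 partners were higher and 6 lower in KO2. That is 25.7% called, against 30.9% of all fitted genes. Leaving out KO1 replicate 1 gave 0 and 4, KO1 replicate 2 gave 0 and 3, and Vector replicate 3 gave 6 and 10.

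Related zinc finger families with the same minimum numbered 58 genes (ZBTB, ZFP, ZSCAN and ZKSCAN). Of these 9 rose and 6 fell in KO2 and 17 rose and 7 fell in KO1. These are 25.9% and 41.4% called, against 27.9% and 34.1% of all fitted genes. The 31 ZBTB genes, which carry a BTB domain in place of KRAB, had 5 up and 1 down in KO2 and 12 up and 4 down in KO1. In KO2 the 58 had 6 up and 3 down without Vector replicate 2 and 19 up and 8 down without Vector replicate 3, and in KO1 10 up and 3 down without KO1 replicate 2. Without Vector replicate 3 and KO2 replicate 3 they had 19 up and 12 down in KO2 and 23 up and 15 down in KO1, where 49.5% and 56.8% of all genes were called.

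Promoters in RefSeq were matched for 240 members. The ETS letters CCGGAAG, searched on both strands in the 250 bases before the start, were found in 30.4% of them, against 8.52% of all 35116 promoters and 16.3% of 9613 promoters of other fitted genes. The YY1 letters AAGATGGC were found in 3.75%, against 1.89% of other fitted genes, and a ZNF143 consensus in 2.5%, against 0.499%. An NRF1 consensus was found in 11.2%, against 10.9%, the E-box letters CACGTG in 5%, against 9.14%, and the CRE letters TGACGTCA in 3.75%, against 2.91%. In the terminal block of chromosome 19 the ETS letters were in 17 of 33 promoters, and in the block from ZNF146 to ZNF607 in 2 of 15. A match is only a match of letters, and these shares were not tested.

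Members with the ETS letters had 22 up and 8 down of 73 in KO2 and 29 up and 12 down in KO1, and members without them 39 up and 24 down of 167 in KO2 and 38 up and 36 down in KO1. Among all fitted genes 12.9% rose and 15% fell in KO2, and 17.4% rose and 16.7% fell in KO1. Within the terminal block 14 of 17 members with the letters and 14 of 16 without them rose in KO2. In KO1, 16 of 17 and 13 of 16 rose. Outside it, members with the letters had 8 up and 8 down of 56 in KO2 and 13 up and 12 down in KO1, and those without had 25 up and 24 down of 151 in KO2 and 25 up and 36 down in KO1.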

How the data were processed

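RNA was measured in 9 libraries of H1299 cells, 3 each of KO2, KO1 and Vector. The deposited values are FPKM per gene, which the authors computed. CASAVA 1.6, HISAT2 2.0.5, featureCounts 1.5.0-p3 and the hg38 genome are listed in the submitters' processing notes. Not given in the sources used here were their order, options and strand setting, so reads of a gene and of an antisense partner cannot be told apart. Whole reads were recovered from the deposited FPKM steps for 100.0% of values within a tolerance of 0.02, giving the depth per library. No column was left without a sample.

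Members and lists were chosen with earlier results of these data known. Log2(FPKM + 1) of the 16426 genes averaging 0.5 FPKM or more was fitted in 1 model over the 9 libraries with limma 3.58.1 (R 4.3.3), with trended empirical Bayes, and p-values were adjusted by Benjamini-Hochberg over all of them. A fold change on this scale understates the change of low genes. The fit was tested on simulated data. Alternatives were a pseudocount of 0.1, other filters and thresholds, TPM, voom on the recovered reads, array weights, a replicate block, 6 libraries at a time, subtraction of neighbours, and leaving libraries out. A count of members of chromosome 19 apart from the others was added after the data were seen.

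Positions, exons and coding sequences came from GENCODE 29 (hg38), since the deposited gene names matched it at 99.95%. Fingers and KRAB cores were read from the translated coding sequences, and promoters from RefSeq (GRCh38.p14). No genome interval was converted between builds.

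Names were drawn, for each comparison, from up to 8 rising and 8 falling members with the largest change among called members whose groups do not overlap. They were also drawn from the 10 members with the highest mean, the members of the role lists, and the extreme members of each cluster. The 3 genes on either side of the 2 FPKM minimum, and partner genes called with a change of at least 0.5 on the log2 scale, complete the rule. BCKDK is the check of the labels. 1 partner gene that meets this rule is not reported here. SETDB1 and members that stand outside the clusters of chromosome 19 and meet none of these rules were picked after their values were seen.

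Lists of markers were 9 epithelial and lung genes, 3 mesenchymal genes and 7 genes of other cell types. The mesenchymal genes VIM, CDH2 and ZEB1 all passed the minimum, and VIM averaged 513 FPKM in KO2, 591 FPKM in KO1 and 702 FPKM in Vector.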

Additional observations from a re-analysis of the deposited data

Results flagged for a closer look

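The test of KO2 against KO1 in the same limma fit called 55 members. In 4 of them the lines differed by at least 1 on the log2 scale, and only these 4 were flagged. The difference on the log2 scale, KO2 minus KO1, was 2.80 for ZNF467, 2.24 for ZNF300, 1.20 for ZNF362 and -1.55 for ZNF598. ZNF467 was higher than Vector in KO2 and lower in KO1. ZNF300 fell in both lines, and fell further in KO1. ZNF362 was called only in KO1, where it fell, and ZNF598 was called only in KO1, where it rose. Each of these differences was called in all 9 fits that left out 1 library.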

How the results depend on the processing

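Counts of called members, in the order KO2, KO1, KO2 against KO1 and mean of both lines against Vector, were 116, 131, 55 and 134. At an adjusted p under 0.01 they were 57, 71, 19 and 82, and with array weights 209, 226, 153 and 216. With neighbours subtracted they were 60 in KO2, 61 in KO1 and 66 for the mean. Without a filter 34 were called in KO2 against KO1, and with 6 libraries in a fit 68 in KO2. Leaving out Vector replicate 3 and KO2 replicate 3 gave 177, 207 and 126. Leaving out 1 library at a time gave 81 to 158 in KO2, 81 to 169 in KO1, 21 to 97 in KO2 against KO1 and 93 to 166 for the mean. Member medians were then 0.134 to 0.173, 0.084 to 0.112, 0.016 to 0.073 and 0.1 to 0.139. The median in KO2 was 0.092 with neighbours subtracted and 0.103 without both libraries, and that of KO2 against KO1 was 0.153 under TPM. Shares of all fitted genes called were not counted at 0.01, with array weights or with 1 library left out. Nor were they counted without a filter or with 6 libraries in a fit. Counts of members, partners and related families at these settings therefore have no background beside them.

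Partners called in KO2, KO1 and KO2 against KO1 numbered 5, 6 and 2 at 0.01, 28, 25 and 24 with array weights, and 19, 25 and 20 without both libraries. They were 6 in KO1 with neighbours subtracted and 14 in KO2 against KO1 with 6 libraries, and 8 to 13, 7 to 18 and 3 to 16 when 1 library was left out. Related families gave 6, 12 and 5 at 0.01, 37, 42 and 35 with array weights, and 31, 38 and 26 without both libraries. With neighbours subtracted they gave 11 in KO1 and 7 in KO2 against KO1, with 6 libraries 8 in KO2 and 19 in KO2 against KO1, and 9 to 27, 13 to 31 and 5 to 24 when 1 library was left out.

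Alternatives were run for 4 clusters of chromosome 19, in KO2 and in KO1 against Vector. Their medians kept their direction, except that the ZNF576 to ZNF296 cluster reversed with neighbours subtracted, to 0.137 in KO2 and 0.087 in KO1. So did ZNF519 (0.459 in KO2, 0.657 in KO1), ZNF567 (0.168, 0.165), ZNF461 (0.127 in KO1) and ZNF274 (-0.138 in KO2). The other chromosome 19 clusters (ZNF146, ZNF175, ZNF628 in order) then had -0.063, 0.155 and 0.109 in KO2 and -0.118, 0.140 and 0.132 in KO1. With all 4 clusters in order of position, voom gave -1.016, -0.416, 0.736 and 0.794 in KO2 and -0.953, -0.365, 0.666 and 0.876 in KO1. A pseudocount of 0.1 gave -0.992, -0.406, 0.707 and 0.773 in KO2, and -0.935, 0.631 and 0.836 in KO1 for the ZNF146, ZNF175 and ZNF628 clusters. TPM gave -0.924, 0.683 and 0.766 in KO2 for the same 3, and -0.992 and -0.419 in KO1 for the first 2 by position. Array weights gave 0.353 in KO2 for the ZNF175 cluster, and both libraries left out gave 0.349 and 0.551 in KO2 for the ZNF175 and ZNF628 clusters. Leaving out 1 library gave, by position, -0.894 to -0.684, -0.379 to -0.324, 0.409 to 0.577 and 0.549 to 0.652 in KO2, and -0.918 to -0.676, -0.304 to -0.251, 0.377 to 0.523 and 0.639 to 0.674 in KO1.

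Replicate numbers did not pair the samples, since same-numbered libraries correlated at -0.202 to 0.142. With the replicate block 96 members were called in KO2, 118 in KO1 and 33 in KO2 against KO1. The cause of these differences between settings was not tested. Depth limits low members, whose lowest library had a median of 252 reads over the members, and 3 libraries a group limit every test.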

Other observations

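Some ZNF rows under the minimum of 2 FPKM also differed, and they were picked after their values were seen. ZNF711, an X-linked gene whose protein binds the histone demethylase PHF8, was listed at 0 in all 6 knockout libraries and at 2.42, 2.08 and 1.40 FPKM in Vector. ZNF93, a KRAB gene that silences a class of L1 retroelements, had 0.0609, 0.0600 and 0.0775 FPKM in KO2, 0.0112, 0.0772 and 0.0212 FPKM in KO1, and 0.904, 1.07 and 0.592 FPKM in Vector. Every knockout library lay under every Vector library. ZNF703, a breast cancer oncogene, had 1.77, 1.52 and 1.03 FPKM in KO2, 0.973, 1.40 and 1.31 FPKM in KO1, and 0.308, 0.318 and 0.510 FPKM in Vector. It was higher in each knockout library than in each Vector library, with log2 changes of 0.82 in KO2 and 0.69 in KO1.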
